A study of Mus musculus with 8 samples.

Results

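The genes described here encode the enzymes that split glucose to pyruvate and lactate, the transporters that carry glucose and lactate across the cell membrane, and the enzymes that set how pyruvate and fructose phosphate are used. They were chosen by name as a list of 36 genes of this pathway, and 35 of them, all but Aldoc, were among the 16302 genes with values here. All 35 passed the filter on low values, a mean of at least 10 normalized reads over the GFP+ and Tomato+ libraries. Mouse embryos at embryonic day 9.5 provided the cells, which were sorted from the micro-dissected second heart field (SHF), the pool of cardiac progenitors behind the heart tube. GFP+ cells (3 libraries) carried the green reporter of the Hoxb1-GFP line, which marks the posterior SHF. Tomato+ cells (3 libraries) came from Mef2c-AHF-Cre;Rosa-tdTomato embryos, where Cre under the anterior heart field enhancer of Mef2c permanently switches on a red protein, so that descendants of the cells in which Cre was active are labelled too. GFP- and Tomato- cells (1 library each) were the cells without reporter from the same 2 lines. Dissected tissue was pooled from several embryos, and the labels do not say that the libraries of a group came from separate pools, so p-values here describe variation among these particular libraries, part of which may be technical.

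Glycolysis turns a glucose molecule into pyruvate in the cytosol. Hexokinases trap glucose, phosphofructokinase commits it, and pyruvate kinase makes the final pyruvate. Lactate dehydrogenase converts pyruvate to lactate, which monocarboxylate transporters export, whereas pyruvate dehydrogenase sends pyruvate into mitochondrial oxidation unless its kinases switch it off. Cells of the early mouse embryo are known to depend strongly on glycolysis, and differentiating heart muscle shifts to mitochondrial oxidation later.

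Libraries held 22668185 to 41597870 reads, of which 12765045 to 27249149 lay outside mitochondrial genes, and 3 reads corresponded to 2.16 to 4.53 normalized reads. Replicates 1 and 3 were near copies in both positive groups. Between them, Pearson's chi-square divided by its degrees of freedom was 2.35 for GFP+ and 2.38 for Tomato+ cells, whereas it was 72.4 to 93.0 for every pair with replicate 2. A second limma fit therefore averaged replicates 1 and 3, and its result is given wherever it ended a call. That fit was not stricter for every gene. For Slc2a3 its limma adjusted p was 1.14e-09, against 1.15e-06 with all libraries, and for Pdk3 0.0289 against 0.0424. The 8 SHF markers with values summed to 11125 to 12734 normalized reads in GFP+, against 5741 to 5998 in Tomato+ libraries, and to 2802 in GFP- against 5512 in Tomato- cells, so the Tomato+ sum lay close to that of the unlabelled cells of its line. All 8 SHF markers passed as higher in GFP+ cells, also Tbx1 and Fgf10, which the paper names as markers of the anterior SHF. Tbx1 had 170 to 281 in GFP+ against 99.97 to 137 in Tomato+ libraries, and Fgf10 had 369 to 472 against 146 to 174. Erythroid transcripts were far lower in GFP+ than in the other cells. The 11 erythroid markers took 0.00469% to 0.00685% of reads outside mitochondrial genes in GFP+, against 0.622% to 0.766% in Tomato+ libraries, and 1.46% in GFP- against 1.34% in Tomato- cells. Cardiomyocyte markers summed to 28911 to 34056 normalized reads in GFP+, against 4136 to 4651 in Tomato+ libraries, and 8 of 9 passed as higher. Endoderm and epithelium markers summed to 7121 to 8006 in GFP+ against 776 to 970.2 in Tomato+ libraries, and 7 of 7 passed as higher. Lower sums in GFP+ were found for leukocyte (195 to 291 in GFP+, 1382 to 1654 in Tomato+, 6 of 7 passed as lower), neural tube (3658 to 4204 in GFP+, 8279 to 8970 in Tomato+, 4 of 7 lower and 1 higher) and endothelial markers (1597 to 1704 in GFP+, 2335 to 2680 in Tomato+, 4 of 7 lower). Neural crest markers summed to 2999 to 3084 in GFP+ and 6463 to 6988 in Tomato+ libraries, with 2 of 5 lower, and most of that gap lay in Tfap2b (506 to 714 in GFP+, 3900 to 4791 in Tomato+). The part of these other cells in the glycolytic levels was not tested, and in sorted bulk samples fewer cells of a type and less RNA per cell cannot be told apart.

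Most steps from glucose uptake to lactate export were higher in GFP+ than in Tomato+ cells. Of the 35 genes, 20 were called higher (limma, Benjamini-Hochberg adjusted p under 0.05 over all 16153 genes tested), where 19.7% of all tested genes were. Another 4 were called lower, Hk1, Ldhb, Pfkfb1 and Pfkfb4, where 20% of all genes were, and 11 did not pass. In either direction, 39.7% of all tested genes were called. With replicates 1 and 3 averaged, 16 genes were called higher and 0 lower, against 8.9% and 9.24% of all genes. Without GFP+ replicate 1, Tomato+ replicate 1 or Tomato+ replicate 3, 17 genes were called higher and 2 lower. Of all genes, 12.8% to 14.1% were higher and 13.2% to 13.9% lower in these fits. The calls of Gpi1, Ldhb, Pfkfb1, Pdhb, Pdk3 and G6pdx each ended without 1 or more single libraries. Log2 fold changes, on log2(normalized reads + 1), had a median of 0.71 over the list and of -0.01 over all tested genes. At least 2-fold higher were 14 of the 20, where 7.74% of all genes were called at that size. GFP+ and Tomato+ libraries did not overlap for 21 genes with GFP+ above and for 5 with GFP+ below, against 27.2% and 27.4% of all genes.

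**Figure D1:**
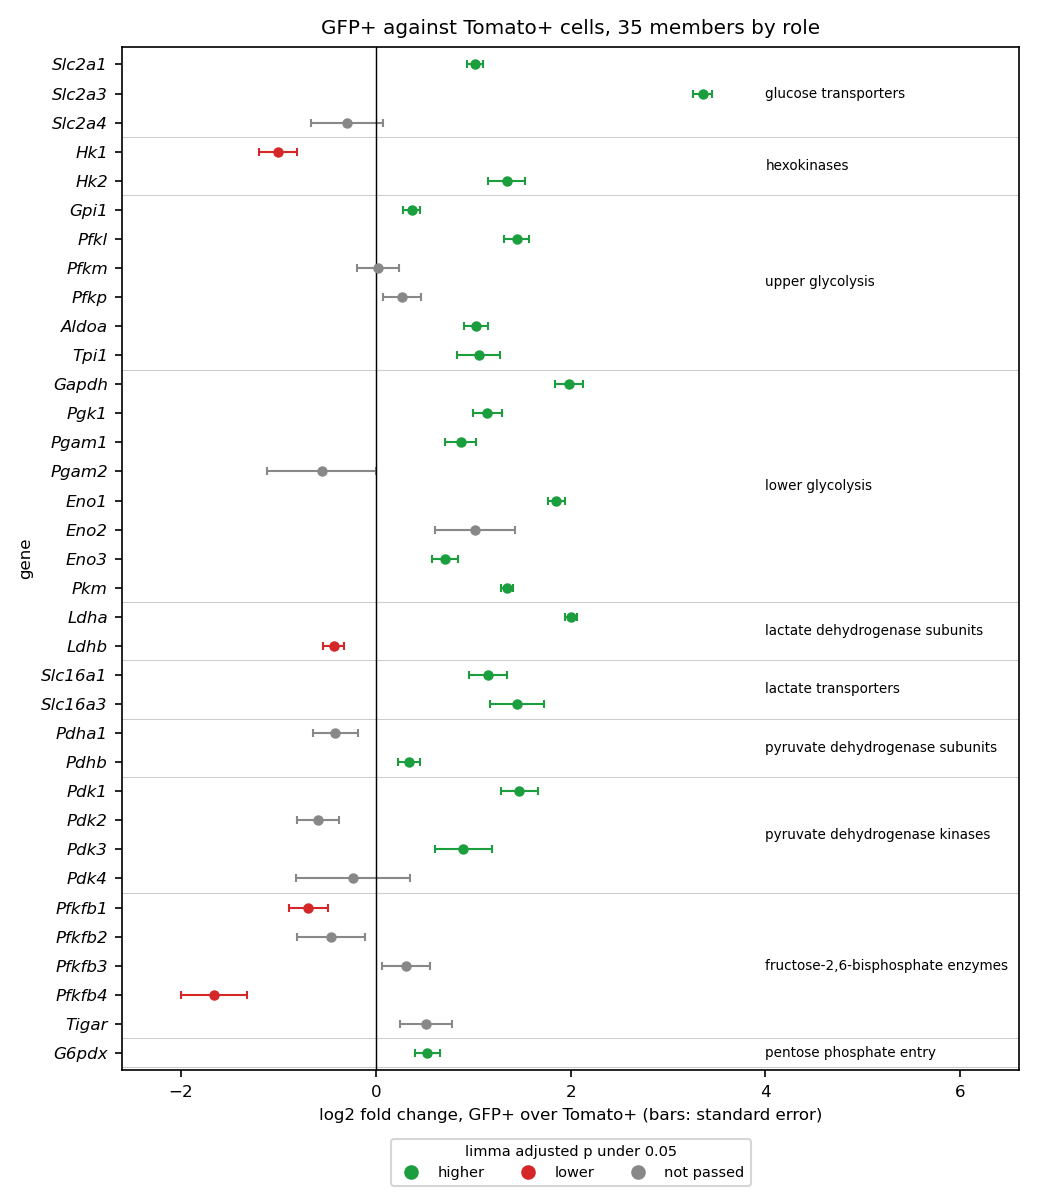
Log2 fold change of GFP+ over Tomato+ cells (x axis) for the 35 genes, in rows grouped by role, with bars for the limma standard error (n = 3 libraries each) and colour for the call at an adjusted p under 0.05. Slc2a3 lies far to the right at 3.36, most enzymes of the main path lie between 0.3 and 2, and the fructose-2,6-bisphosphate enzymes lie mostly below 0.

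A small number of genes carried most of this. Ldha, Gapdh, Pkm and Eno1 together held 63.2% to 64.5% of the summed normalized reads of the list in GFP+, against 46.3% to 50.3% in Tomato+ libraries, and 67.7% in GFP- against 46.7% in Tomato- cells. Outside these 4 genes, the rest of the list summed to 38388, 37850 and 38810 normalized reads in GFP+ libraries 1 to 3, against 20764, 20205 and 21328 in Tomato+ libraries. The difference was thus also present without the most abundant enzymes. Per kilobase of exon, Ldha had the highest level of the list, 7713 normalized reads in GFP+ against 1928 in Tomato+ cells, ahead of Gapdh at 4579 in GFP+ against 1176 in Tomato+ cells. Pdk4 had the lowest, 6.0 in GFP+ against 6.4 in Tomato+ cells.

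In 2 enzyme families a pair of related genes was called in opposite directions, and the stretch just before their start sites is shown for that reason, with the transporters Slc2a1 and Slc16a3 beside them. These transporters were picked without a rule, so the stretches shown do not stand for the list. The sequences are the 120 bases before the start site in RefSeq (GRCm38.p6), read in the direction of the gene. Capitals mark ACGTG and GCGTG on either strand, the core to which hypoxia-inducible factors bind.
Hk2 (higher in GFP+, chr6:82774455-82774574, minus strand): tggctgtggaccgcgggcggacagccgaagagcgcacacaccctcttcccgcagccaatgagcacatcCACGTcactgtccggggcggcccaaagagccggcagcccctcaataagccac
Hk1 (lower, chr10:62379909-62380028, minus strand): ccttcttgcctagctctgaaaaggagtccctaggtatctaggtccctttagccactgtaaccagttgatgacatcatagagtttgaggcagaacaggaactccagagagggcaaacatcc
Ldha (higher, chr7:46845684-46845803, plus strand): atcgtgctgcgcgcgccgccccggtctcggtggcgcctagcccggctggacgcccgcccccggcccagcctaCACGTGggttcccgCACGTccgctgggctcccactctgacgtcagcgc
Ldhb (lower, chr6:142507958-142508077, minus strand): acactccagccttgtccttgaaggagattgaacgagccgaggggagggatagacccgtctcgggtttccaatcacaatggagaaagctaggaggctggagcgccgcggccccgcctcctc
Slc2a1 (higher, chr4:119108625-119108744, plus strand): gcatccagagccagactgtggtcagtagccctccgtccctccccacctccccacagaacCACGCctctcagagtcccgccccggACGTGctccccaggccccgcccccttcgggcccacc
Slc16a3 (higher, chr11:120948947-120949066, plus strand): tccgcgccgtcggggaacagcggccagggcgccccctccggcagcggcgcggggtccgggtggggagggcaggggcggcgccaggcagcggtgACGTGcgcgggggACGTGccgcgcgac

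The stretches of Hk2, Ldha, Slc2a1 and Slc16a3 held at least 1 such core, and those of Hk1 and Ldhb held 0. For Ldhb this depended on where the stretch was cut, since a GCGTG began at -126 from the start, just outside it. Over all genes with such a stretch the division was less clear, with a core in 11 of 19 genes called higher and in 6 of the other 14, and Pgk1, Eno1, Pkm and Slc16a1, called higher, held 0. Of these, Pgk1 (ACGTG at -131), Slc16a1 (GCGTG at -134) and Eno1 (GCGTG at 9) held cores outside the stretch. Hk1 and Pkm held neither core from 250 bases before to 50 after the start used. A share over all tested genes is not given for this stretch. A promoter from 250 bases before to 50 after the start was on file for 33 of the 35 genes. ACGTG, on either strand, was found in 15 of these (45.5%), against 25.4% of the 10438 promoters of tested genes. It was in 11 of the 19 promoters of genes called higher and in 4 of the other 14. GCGTG was in 57.6% of the promoters on the list, against 51.5% of all, and in 12 of the 19 called higher and 7 of the other 14. CACGTG, the E-box of Myc and related factors, which holds ACGTG on both strands, was in 18.2% against 9.93%, and in 2 of the 19 and 4 of the other 14. GGGCGG, a site of Sp factors, was in 60.6% against 64.5%, and in 15 of the 19 and 5 of the other 14. These are counts of letters and were not tested, and between 50 bases before and 50 after the start the share with ACGTG was 24.2% against 10.7% of all.

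Of the 3 glucose transporters, 2 were higher, and Slc2a3 had the largest fold change of the list. Slc2a3 (chr6:122727809-122801640), the high-affinity transporter GLUT3, had 4686, 4194 and 4834 normalized reads in GFP+ libraries, against 461, 442 and 433 in Tomato+ libraries, and 2120.4 in GFP- against 435 in Tomato- cells. It was 10.2-fold higher in GFP+ cells (log2 fold change 3.36, SE 0.10, limma adjusted p = 1.15e-06). Every GFP+ library lay above all 5 others, and the GFP- library in turn lay far above both kinds of cells from the Mef2c-Cre line. Slc2a1 (chr4:119108711-119137983), the basal transporter GLUT1, had 5791, 5487 and 6034 normalized reads in GFP+, against 2704, 3062 and 2757 in Tomato+ libraries. Its fold was 2.03 (log2 fold change 1.02, SE 0.08, limma adjusted p = 9.38e-05). Here the GFP- library was the highest of all at 9437, against 2150.5 in Tomato- cells. Slc2a4, the insulin-regulated GLUT4, was low and overlapped, with 143, 71.9 and 133 in GFP+ against 110.1, 202 and 115 in Tomato+ libraries (limma adjusted p = 0.553), and it had 79.9 in GFP- against 52.9 in Tomato- cells.

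The 2 hexokinases moved apart. Hk2 (chr6:82725025-82774454), the isoform that is inducible in many tissues, had 2979, 2149.5 and 2949.9 normalized reads in GFP+, against 1156, 809.8 and 1227 in Tomato+ libraries, and 2199 in GFP- against 1201 in Tomato- cells. The groups did not overlap, and the fold was 2.54 (log2 fold change 1.35, SE 0.19, limma adjusted p = 0.00126). Hk1 (chr10:62268855-62379908), the widely expressed isoform that red blood cells also use, had 186, 264 and 178 in GFP+, against 398, 433 and 411 in Tomato+ libraries, and 433 in GFP- against 449 in Tomato- cells. It fell by 1.0 on the log2 scale (SE 0.19, limma adjusted p = 0.00529, and 0.0799 with replicates 1 and 3 averaged). Low levels in GFP+ libraries and similar levels in the other 5 followed the order of the erythroid markers between GFP+ and the rest, and the part of blood in this difference was not tested.

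In upper glycolysis, 4 of 6 genes were higher and 0 lower, where 19.7% and 20% of all tested genes were. Pfkl (chr10:77986947-78010083), the liver-type phosphofructokinase, had 1396, 1151 and 1304 normalized reads in GFP+, against 504, 420.5 and 488 in Tomato+ libraries, and 1561 in GFP- against 692 in Tomato- cells. It was 2.72-fold higher (log2 fold change 1.44, SE 0.13, limma adjusted p = 0.000149), and its groups were far apart. Its paralogs were not called. Pfkp, the platelet type, had 579, 409 and 645 in GFP+ against 469, 394 and 473 in Tomato+ libraries (limma adjusted p = 0.301), with 644 in GFP- against 915 in Tomato- cells, so these overlapped. Pfkm, the muscle type, averaged 413 ± 61.0 over the GFP+ libraries, against 412 ± 111 over the Tomato+ libraries (SD, n = 3 each, limma adjusted p = 0.941). Aldoa, which splits fructose bisphosphate, had 3946, 3767 and 3842 in GFP+, against 1691, 2305 and 1725 in Tomato+ libraries, and 5499 in GFP- against 2146 in Tomato- cells (log2 fold change 1.03, SE 0.13, limma adjusted p = 0.000646). Tpi1 (chr6:124810586-124814296), which interconverts the triose phosphates, had 1504, 1422 and 1479 in GFP+, against 544, 1032 and 621 in Tomato+ libraries, and 2268 in GFP- against 584 in Tomato- cells. Tomato+ replicate 2 stood nearer to the GFP+ libraries than its 2 group mates did, yet the groups did not overlap (log2 fold change 1.06, SE 0.22, limma adjusted p = 0.00715). Gpi1, which isomerizes glucose phosphate, was 1.29-fold higher (limma adjusted p = 0.0122, and 0.254 with replicates 1 and 3 averaged).

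Lower glycolysis, from the triose phosphates to pyruvate, had 6 of 8 genes higher and 0 lower, where 19.7% and 20% of all tested genes were. Gapdh (chr6:125161715-125166467), which oxidizes glyceraldehyde phosphate, had 18164, 19515 and 19099 normalized reads in GFP+, against 4008, 6097 and 4473 in Tomato+ libraries, and 27394 in GFP- against 4889.9 in Tomato- cells. It was 3.96-fold higher (log2 fold change 1.98, SE 0.14, limma adjusted p = 5.87e-05). A gene often used to normalize other measurements thus differed between the sorted cells by much more than its spread. Eno1 (chr4:150236721-150248879), the ubiquitous enolase, had 11249.7, 11173 and 11064 in GFP+, against 2879, 3464 and 2949 in Tomato+ libraries, and 12339 in GFP- against 3159 in Tomato- cells (log2 fold change 1.85, SE 0.09, limma adjusted p = 8.71e-06). Pkm (chr9:59656368-59679375), the pyruvate kinase of most tissues, had 11849, 11767 and 11592 in GFP+, against 4599.8, 4626 and 4586 in Tomato+ libraries, and 16180.3 in GFP- against 4390.0 in Tomato- cells. It was 2.55-fold higher (log2 fold change 1.35, SE 0.06, limma adjusted p = 8.07e-06), and its libraries agreed closely within each group. These gene-level values do not separate the M1 and M2 splice forms of Pkm.

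Among the other genes of these steps, Pgk1, the first enzyme to make ATP, was 2.21-fold higher (limma adjusted p = 0.000866), Eno3, the muscle enolase, 1.64-fold (limma adjusted p = 0.00424) and Pgam1, which moves the phosphate of phosphoglycerate, 1.83-fold (limma adjusted p = 0.0042, and 0.0576 with replicates 1 and 3 averaged). Eno3 averaged 1077 ± 114 normalized reads over the GFP+ libraries, against 657 ± 71.6 over the Tomato+ libraries (SD, n = 3 each), and had 532 in GFP- against 409 in Tomato- cells, so that both negative libraries lay below their positive ones. Eno2, the neuronal enolase, did not overlap between the groups, with 84.8, 49.8 and 81.5 in GFP+ against 32.8, 48.1 and 25.2 in Tomato+ libraries, but did not pass (limma adjusted p = 0.0843). Pgam2, the muscle mutase, was low in every library, with 79.0, 27.7 and 79.3 in GFP+ against 75.5, 151 and 48.9 in Tomato+ libraries, and 44.3 in GFP- against 34.7 in Tomato- cells (limma adjusted p = 0.464).

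Several of these genes share sequence with processed copies elsewhere in the genome, and reads may have been split or lost among them. Transcripts of 81 other genes matched Gapdh at 95% identity or more over at least 100 bases, 9 of them with values here. Those 9 summed to 1283 to 1698 normalized reads in GFP+, against 647 to 923 in Tomato+ libraries. Eno1b, a near copy of Eno1, had 576 to 657 in GFP+, against 195 to 197 in Tomato+ libraries. The copies of both genes thus lay on the same side as the genes themselves. Ldha, Pgk1, Pkm, Gpi1, Pgam1, Ldhb and Pdhb also had such matches, over 43.1% to 76.8% of their longest coding transcript, and some other genes over less. Those of Gpi1 included Mrpl27 and Wdr33, so they need not be copies. For Ldhb and Pdhb the 1 match with values overlapped between the groups. It had 75.3 to 89.2 in GFP+ and 42.5 to 93.5 in Tomato+ libraries for Ldhb. For Pdhb it had 19.8 to 37.8 in GFP+ and 13.7 to 104.8 in Tomato+ libraries. The amplification kit kept no strand, and Pfkfb2, Pdha1, Pkm, G6pdx, Gpi1 and Pfkm share 10.7% to 19.5% of their exon bases with other annotated genes, mostly on the opposite strand, so their values are less certain.

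**Figure D2:**
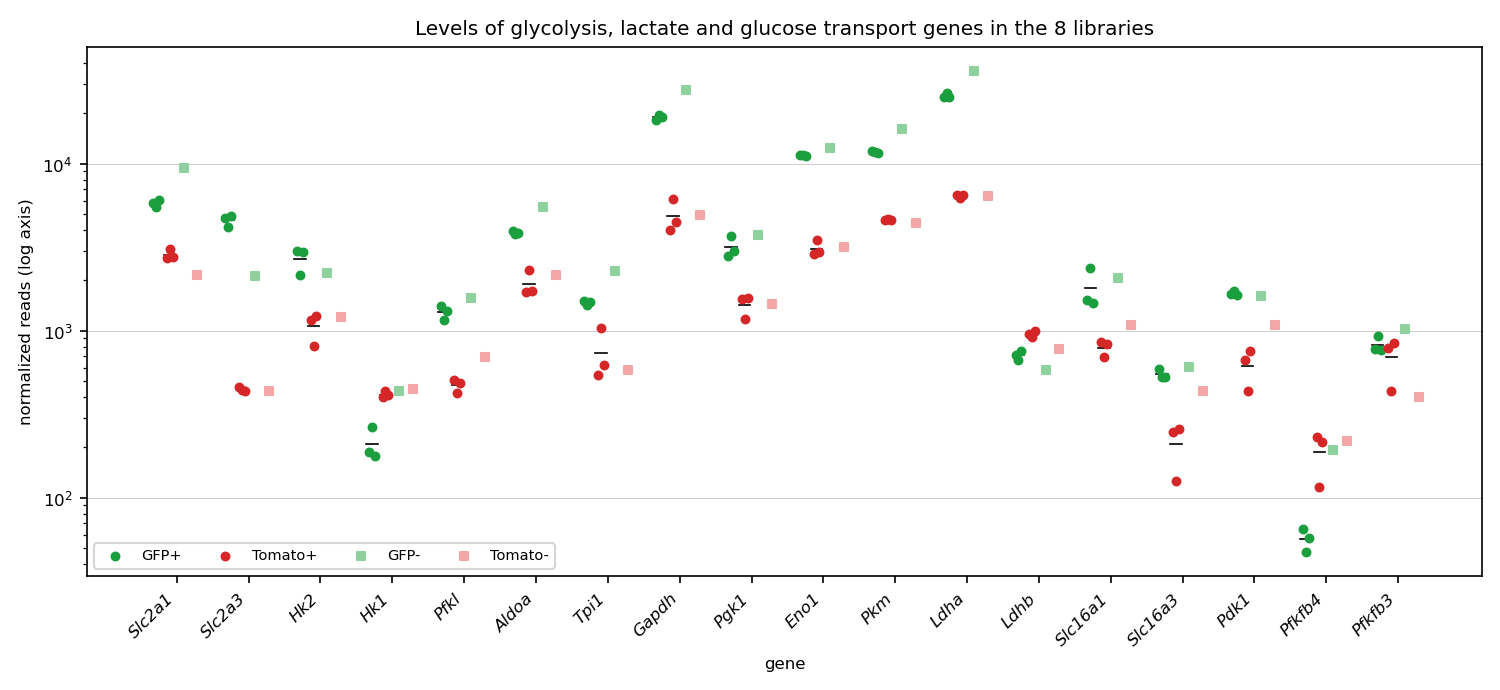
Normalized reads (log y axis) of 18 genes (x axis) in the 3 GFP+, 3 Tomato+, 1 GFP- and 1 Tomato- libraries, with 1 point per library and a bar at the mean of 3. For Ldha the GFP+ libraries sit between 25035 and 26406 and the GFP- library at 35762, all far above the Tomato+ and Tomato- libraries at 6247 to 6456, whereas for Hk1 and Pfkfb4 only the GFP+ libraries are low.

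Conversion to lactate showed the same split within a family as the hexokinases. Ldha (chr7:46841475-46855627), the subunit that predominates in glycolytic tissues, had 25149.9, 26406 and 25035 normalized reads in GFP+, against 6441, 6247 and 6456 in Tomato+ libraries, and 35762 in GFP- against 6350.2 in Tomato- cells. It was 4.0-fold higher (log2 fold change 2.00, SE 0.06, limma adjusted p = 1.59e-06). Ldhb (chr6:142490249-142507957), the heart-type subunit, had 710.1, 666 and 759 in GFP+, against 954, 919 and 999.7 in Tomato+ libraries, and 579 in GFP- against 773 in Tomato- cells. It fell by 0.43 on the log2 scale (SE 0.11, limma adjusted p = 0.0159, and 0.231 with replicates 1 and 3 averaged). Neither gene overlapped between the 4 libraries of the Hoxb1-GFP line and the 4 of the Mef2c-Cre line.

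Both lactate transporters on the list were higher. Slc16a3 (chr11:120948480-120960868), the exporter MCT4, had 587, 527 and 529 normalized reads in GFP+, against 247, 126 and 256 in Tomato+ libraries, and 608 in GFP- against 433 in Tomato- cells (log2 fold change 1.45, SE 0.28, limma adjusted p = 0.00485). Slc16a1 (chr3:104638668-104658462), the widely expressed MCT1, had 1520.5, 2385 and 1471 in GFP+, against 855, 692 and 828 in Tomato+ libraries, and 2062 in GFP- against 1079.8 in Tomato- cells (log2 fold change 1.15, SE 0.19, limma adjusted p = 0.00289). Tomato+ replicate 2 of Slc16a3 and GFP+ replicate 2 of Slc16a1 departed from their group mates, and the groups still did not overlap. Emb, which encodes embigin, a partner that brings monocarboxylate transporters to the membrane, had 3242, 3249 and 3285 in GFP+, against 1003, 981 and 1018 in Tomato+ libraries (log2 fold change 1.70, SE 0.08, limma adjusted p = 8.59e-06). Bsg, which encodes the related partner basigin and was picked after its values were seen, was 3.19-fold higher (limma adjusted p = 3.49e-05). Slc16a7, the transporter MCT2 and the other gene with values in the list of transport partners, had 60.0, 112 and 38.5 in GFP+, against 142, 167 and 119 in Tomato+ libraries (log2 fold change -1.13, limma adjusted p = 0.0583).

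Where pyruvate enters mitochondria, the enzyme and its kinases did not move together. Pdha1, the catalytic alpha subunit of pyruvate dehydrogenase, had 862, 529 and 899 normalized reads in GFP+, against 1139, 791 and 1080.2 in Tomato+ libraries, which overlapped, and 917 in GFP- against 998 in Tomato- cells (log2 fold change -0.42, limma adjusted p = 0.187). Pdhb, the beta subunit, had 1359.6, 1673 and 1383 in GFP+, against 1099, 1175 and 1206 in Tomato+ libraries, and 1429.8 in GFP- against 939 in Tomato- cells (log2 fold change 0.34, SE 0.11, limma adjusted p = 0.0451, and 0.239 with replicates 1 and 3 averaged). Of 8 other genes of pyruvate entry, all with values, 1 was called higher, 2 lower and 5 not, where 19.7% and 20% of all tested genes were higher and lower. With replicates 1 and 3 averaged, 1 was higher and 0 lower, against 8.9% and 9.24% of all genes. So few genes do not set this step apart from all genes. Named after their values were seen, the called genes were Dlat, the acetyltransferase of the complex (log2 fold change 0.70, limma adjusted p = 0.00781), and lower Mpc1 and Mpc2, the mitochondrial pyruvate carriers (-1.75 and -0.97, limma adjusted p = 0.0406 and 0.0112, and 0.302 and 0.133 with replicates 1 and 3 averaged).

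Of the 4 kinases that inactivate pyruvate dehydrogenase, Pdk1 and Pdk3 were higher and Pdk2 and Pdk4 did not pass. Pdk1 (chr2:71873224-71903858), known as a hypoxia-inducible kinase, had 1665, 1714 and 1639.6 normalized reads in GFP+, against 663, 436 and 752 in Tomato+ libraries, and 1620.0 in GFP- against 1078 in Tomato- cells. It was 2.78-fold higher (log2 fold change 1.47, SE 0.19, limma adjusted p = 0.00087), and the GFP- library lay only just below the GFP+ ones. Pdk3 had 843, 791 and 834 in GFP+, against 573, 259 and 575 in Tomato+ libraries, and 787 in GFP- against 453 in Tomato- cells (log2 fold change 0.90, SE 0.29, limma adjusted p = 0.0424). Without GFP+ replicate 1 its adjusted p in limma was 0.101, so the call was slight. Pdk2 had 135, 132 and 129.9 in GFP+, against 172, 242 and 193 in Tomato+ libraries, and 138 in GFP- against 209.9 in Tomato- cells, with no overlap (log2 fold change -0.60, limma adjusted p = 0.0587). Pdk4, which responds to fasting, averaged 21.2 ± 13.6 in GFP+ against 22.5 ± 3.09 in Tomato+ libraries (SD, n = 3 each, limma adjusted p = 0.774) and had 26.9 in GFP- against 179.7 in Tomato- cells.

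The enzymes that make or break fructose-2,6-bisphosphate, the strongest activator of phosphofructokinase, were not called higher. Of 5 genes, 0 were higher and 2 lower, where 19.7% and 20% of all tested genes were. With replicates 1 and 3 averaged, 0 were higher and 0 lower, against 8.9% and 9.24% of all genes. So few genes do not set this class apart from all genes. Pfkfb4 (chr9:108991778-109032228), a bifunctional kinase and phosphatase, had 65.1, 47.0 and 57.3 normalized reads in GFP+, against 230.3, 116 and 216 in Tomato+ libraries, and 194 in GFP- against 217 in Tomato- cells. It fell by 1.66 on the log2 scale (SE 0.34, limma adjusted p = 0.00634, and 0.0789 with replicates 1 and 3 averaged), and all 5 other libraries lay above the GFP+ ones. Pfkfb1, the liver isoform, had 121, 154 and 153 in GFP+, against 228, 241 and 222 in Tomato+ libraries, and 203 in GFP- against 257 in Tomato- cells (log2 fold change -0.69, SE 0.20, limma adjusted p = 0.0261, and 0.302 with replicates 1 and 3 averaged). Pfkfb3, the isoform with the highest kinase activity, had 780.4, 927 and 759.8 in GFP+, against 788, 435 and 846 in Tomato+ libraries (limma adjusted p = 0.355), and 1022 in GFP- against 400.2 in Tomato- cells. Its positive groups overlapped, the GFP- library lay above and the Tomato- library below all 6 of them. Tigar, a phosphatase that lowers fructose-2,6-bisphosphate, had 355, 203 and 386 in GFP+, against 227, 184 and 229 in Tomato+ libraries, and 199.8 in GFP- against 109 in Tomato- cells (limma adjusted p = 0.164), with GFP+ replicate 2 inside the range of the Tomato+ libraries. Pfkfb2, the heart isoform, averaged 356 ± 144 over the GFP+ libraries, against 464 ± 107 over the Tomato+ libraries (SD, n = 3 each, limma adjusted p = 0.33).

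G6pdx, which diverts glucose phosphate into the pentose phosphate pathway, had 1074, 1289 and 1049 normalized reads in GFP+, against 742, 872 and 748 in Tomato+ libraries, and 1615 in GFP- against 1081 in Tomato- cells. The groups did not overlap, and the fold was 1.44 (log2 fold change 0.53, SE 0.13, limma adjusted p = 0.0131, and 0.127 with replicates 1 and 3 averaged).

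Within a library, the share of each isoenzyme in its family does not depend on how libraries were scaled. These shares were taken on reads per kilobase of exon and compared by exact two-sided permutation, whose smallest p with 3 against 3 libraries is 0.1, so no share could pass 0.05. Replicates 1 and 3, near copies, entered as separate libraries, so these p-values and SDs may be too small. Slc2a3 made up 27.7% ± 0.607 of Slc2a1 and Slc2a3 in GFP+, against 7.07% ± 0.545 in Tomato+ cells (SD, n = 3 each, exact p = 0.1). In GFP- cells its share was 9.81%, against 8.91% in Tomato- cells, so GFP+ libraries stood alone. Ldha made up 94.4% ± 0.483 of Ldha and Ldhb in GFP+, against 76.0% ± 0.512 in Tomato+ cells (SD, n = 3 each, exact p = 0.1), and 96.7% in GFP- against 79.6% in Tomato- cells, a division by line. Hk2 made up 94.6% ± 2.18 of both hexokinases in GFP+, against 78.1% ± 4.64 in Tomato+ cells (SD, n = 3 each, exact p = 0.1), and 87.9% in GFP- against 79.3% in Tomato- cells.

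For phosphofructokinase, Pfkl made up 54.1% ± 1.88 of the family in GFP+, against 31.5% ± 5.79 in Tomato+ cells, where Pfkm made up 53.7% ± 8.62 (SD, n = 3 each, exact p = 0.1 for Pfkl). Without division by exon length the Tomato+ shares were 35.5% for Pfkl, 33.6% for Pfkp and 30.9% for Pfkm, so the order within Tomato+ cells depends on the lengths used. Pdk1 made up 36.8% ± 0.936 of its family in GFP+, against 23.8% ± 0.936 in Tomato+ cells, and Pfkfb4 5.64% ± 0.766 in GFP+ against 15.0% ± 2.18 in Tomato+ cells (SD, n = 3 each, exact p = 0.1). The division of MCT1 and MCT4 overlapped between the groups, with Slc16a1 at 79.0% ± 4.74 in GFP+ against 82.3% ± 3.94 in Tomato+ libraries (SD, n = 3 each, exact p = 0.4). Adjusted over the 22 shares compared, every p of 0.1 became 0.157.

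**Figure D3:**
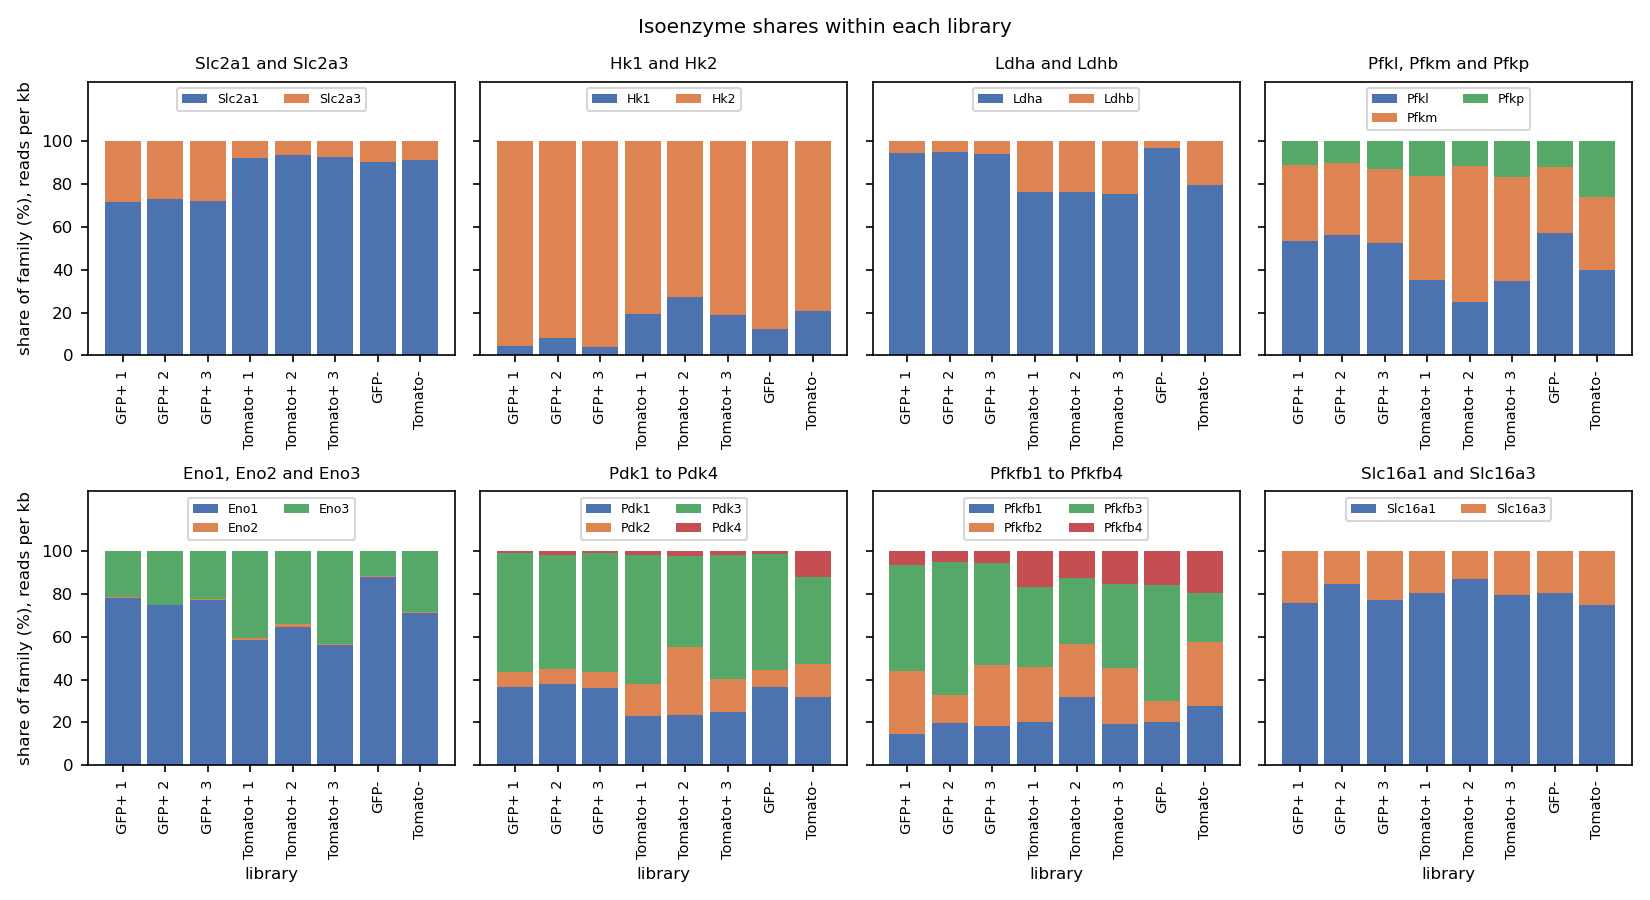
Share of each isoenzyme in its family (y axis, percent of reads per kilobase of exon) in the 8 libraries (x axis), in 1 panel per family. Slc2a3 is larger in the 3 GFP+ libraries than in the other 5, and the Ldhb part is small in the GFP+ and GFP- libraries, 3.3% to 6.01%, and larger in the Tomato+ and Tomato- libraries, 20.4% to 24.6%.

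The cells without reporter were compared by line as well, and many of these genes divided by line. For 17 genes, all among the 20 called higher, the 4 libraries of the Hoxb1-GFP line lay above the 4 of the Mef2c-Cre line, where 15.7% of all genes did so. Pgam1, Eno3 and G6pdx were the 3 called higher that were not separated in this way. For Ldhb, Pdk2 and Pfkfb1 the 4 libraries of the Hoxb1-GFP line lay below, where 15.8% of all genes did. GFP- cells were above Tomato- cells for 20 of the 20 genes called higher in GFP+ and below them for 4 of the 4 called lower, against 77.8% and 76.3% of all genes called in those directions. For Hk1 (433 against 449) and Pfkfb4 (194 against 217) the gap was slight, and 4 genes are too few to set against that share. The log2 ratio of GFP- to Tomato- cells had a median of 0.61 over the list, 1.05 over the genes called higher and 0 over all tested genes. At least 2-fold apart, and with at least 50 normalized reads in the higher library, were 11 genes with GFP- above (15.3% of all tested genes), and with Tomato- above 2 genes, Pdk4 and Pfkfb2 (17.1% of all). Eno2, with 27.8 in GFP- against 6.04 in Tomato- cells, was under that minimum. Pearson's r between both log2 ratios was 0.73 over the 35 genes and 0.42 over all tested genes, as a description, since genes of a library share its depth and its pool. With 1 negative library per line, line, dissection and pool cannot be told apart from the reporter in the comparison of GFP+ with Tomato+ cells.

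**Figure D4:**
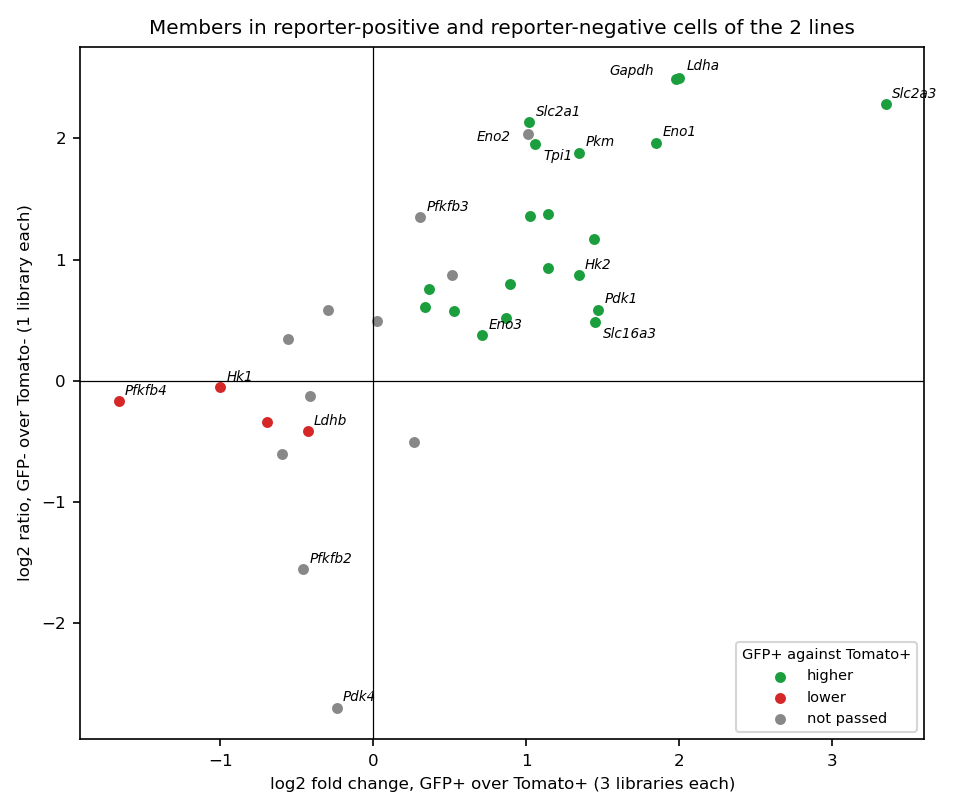
Log2 fold change of GFP+ over Tomato+ (x axis, 3 libraries each) against the log2 ratio of GFP- to Tomato- (y axis, 1 library each) for the 35 genes, coloured by the limma call between the positive groups. The 20 genes called higher lie in the upper right and the 4 called lower in the lower left, with Hk1 and Pfkfb4 close to 0 on the y axis.

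Set against the unlabelled cells of its own line, the median of the list lay near or below 0 in the labelled cells. GFP+ over GFP- had a median log2 ratio of -0.24 over the list, against 0.01 over all tested genes, and Tomato+ over Tomato- had -0.01 against 0.04. The GFP- library was above all 3 GFP+ libraries for 19 genes, 13 of them called higher in GFP+ than in Tomato+ cells, and 33.5% of all tested genes did so. It was below them for 8 genes (33.1% of all). The Tomato- library was above all 3 Tomato+ libraries for 10 genes (36.9% of all) and below them for 11 (37.4%). Of the genes called higher, Slc2a3, Eno3, Pdk1 and Pdk3 were those for which GFP- lay below its GFP+ libraries, and of those called lower Ldhb was. Slc2a3, Eno3, Pdk1, Pdk3 and Eno2 were the 5 genes whose GFP+ libraries lay above all others (11.5% of all tested genes). Hk1, Pdk2, Pfkfb1 and Pfkfb4 were the 4 whose GFP+ libraries lay below all others (11.5%). A negative library at least 2-fold outside its 3 positive ones, under the same minimum of 50 for whichever was higher, was seen for Pfkfb4 (GFP- higher, 3.66% of all genes), Pdk4 (Tomato- higher, 5.95%) and Slc2a4 (Tomato- lower, 9.64%), and for 0 genes with GFP- lower (4.77%). Eno2 was again under that minimum, with 32.8, 48.1 and 25.2 in Tomato+ against 6.04 in Tomato- cells. These comparisons have no replicate of the negative cells and no test.

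Summed over the list, GFP+ libraries had 0.526%, 0.530% and 0.531% of their reads outside mitochondrial genes, against 0.212%, 0.225% and 0.218% in Tomato+ libraries, and 0.706% in GFP- against 0.205% in Tomato- cells. GFP- and Tomato- cells had the highest and the lowest share, with erythroid shares of 1.46% in GFP- and 1.34% in Tomato- cells. With scaling factors computed without mitochondrial and erythroid genes, 20 genes were called higher and 4 lower, where 19.5% and 20% of all genes were. Scaling does not remove reads that blood cells add to a gene, and the part of blood in these shares was not tested.

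**Figure D5:**
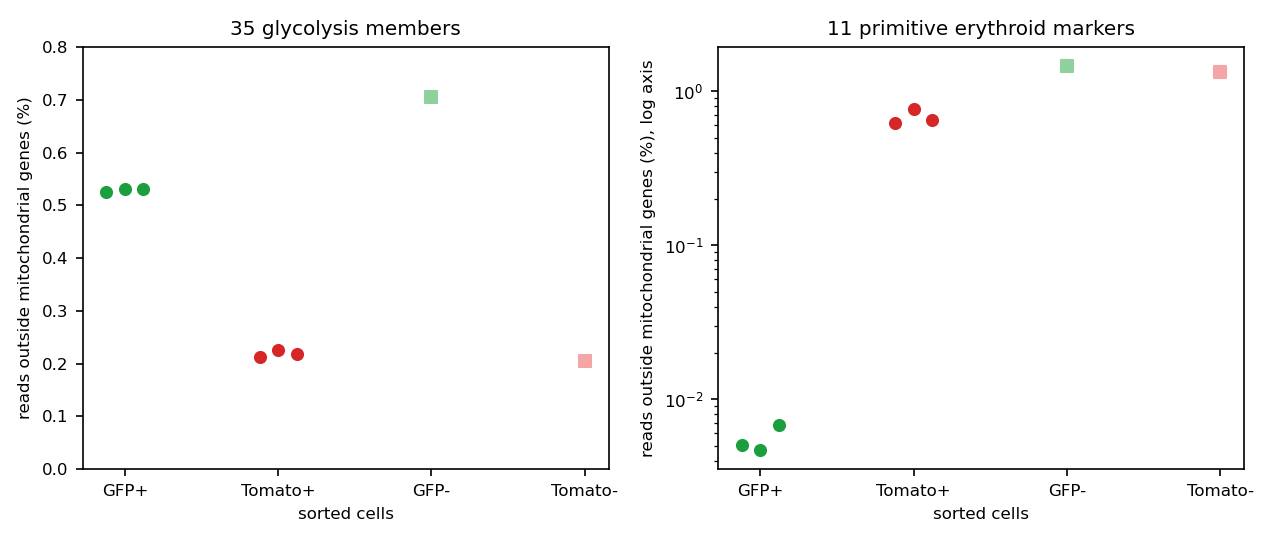
Share of reads outside mitochondrial genes (y axes, percent) in the summed 35 genes (left, linear axis) and in 11 primitive erythroid markers (right, log axis), with 1 point per library in each kind of sorted cells (x axes). The glycolytic share divides by line, whereas the erythroid share is low only in the 3 GFP+ libraries.

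Other genes of carbohydrate metabolism were called in both directions. Of 58 such genes listed by role (other glucose transporters, pyruvate entry, glycogen, gluconeogenesis, pentose phosphates, shuttles), 48 had values, of which 12 were higher, 8 lower and 28 not called, with a median log2 fold change of -0.12 (with replicates 1 and 3 averaged, 6 higher and 3 lower). Over all tested genes 19.7% were higher and 20% lower, and 8.9% and 9.24% with averaging. Glycogen metabolism had 1 of 9 genes higher and 0 lower, and the pentose phosphate genes after G6pdx had 1 of 6 higher and 1 lower. Pklr, the pyruvate kinase of liver and red blood cells, had 0.731, 8.30 and 1.10 normalized reads in GFP+, against 340.4, 323 and 315 in Tomato+ libraries, and 799 in GFP- against 536 in Tomato- cells. It fell by 6.66 on the log2 scale (SE 0.67, limma adjusted p = 0.000273), a value that depends on the pseudocount at so low a level, and its order over the cells was that of the erythroid markers. Slc2a12, a further glucose transporter, had 1.46, 17.5 and 6.61 in GFP+, against 119, 97.7 and 112 in Tomato+ libraries (log2 fold change -3.97, SE 0.74, limma adjusted p = 0.0043). Gpd1, which hands electrons of the cytosol to the glycerol phosphate shuttle, had 152, 99.5 and 149 in GFP+, against 24.6, 24.1 and 23.7 in Tomato+ libraries (log2 fold change 2.39, SE 0.33, limma adjusted p = 0.00118).

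Targets of hypoxia-inducible factors outside glycolysis were counted as well, since many glycolytic genes are known targets. Of 19 listed, 16 had values, of which 8 were higher, 2 lower and 6 not called, with a median log2 fold change of 0.43 (with replicates 1 and 3 averaged, 3 higher and 1 lower), against the same shares of all tested genes, 19.7% and 20% (8.9% and 9.24% with averaging). Vegfa, the endothelial growth factor, had 1349, 2149.5 and 1386 normalized reads in GFP+, against 834, 694 and 859 in Tomato+ libraries (log2 fold change 1.0, SE 0.19, limma adjusted p = 0.00488). Ddit4, an inhibitor of mTORC1 signalling, lay on the other side, with 152, 95.9 and 218 in GFP+ against 436, 453 and 456 in Tomato+ libraries (log2 fold change -1.60, SE 0.29, limma adjusted p = 0.00377). Egln3, an oxygen-sensing prolyl hydroxylase, had 290.3, 119 and 324 in GFP+ against 98.3, 108 and 102 in Tomato+ libraries (limma adjusted p = 0.0482, and 0.275 with replicates 1 and 3 averaged). Bnip3, a mitophagy receptor, was 1.88-fold higher (limma adjusted p = 0.0237, and 0.253 with replicates 1 and 3 averaged).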

How the data were processed

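RNA of sorted cells (2 ng) was amplified with the Ovation kit, which keeps no strand, and sequenced in paired ends. Per the submitters' processing notes, the authors used bcl2fastq 2.17.1.14 and STAR 2.5.2 on mm10 (GRCm38), then HTSeq to count and DESeq2 to normalize. A methods paragraph of the paper names other tools for these cells, and the annotation release is not given in the sources used here. The deposited library columns hold a signal, reads divided by 1 size factor per library, and the mean column holds the authors' mean. The deposited log2 fold change, score (Wald statistic) and p-value columns hold the authors' comparison of GFP+ with Tomato+ cells and were not used. Recovered reads were whole within 0.01 for 100% of values, and edgeR on them called 6261 genes.

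Groups were taken from the labels. GFP+ and Tomato+ libraries were compared with limma 3.58.1 (R 4.3.3, trend) on log2(normalized reads + 1), two-sided, over 16153 genes with a mean of at least 10. The 149 others were left out. Coordinates and exon lengths are from GENCODE M21 (15768 symbols, 96.7%, matched 1 gene, and Aldoa matched more). Promoters are from RefSeq, with 1 start per gene. Alternatives used edgeR 4.0.16, DESeq2 1.42.0, other scalings, pseudocounts and filters, a replicate block, array weights and leaving out libraries. The fits were tested on simulated data. Values for all libraries are given for up to 3 genes per role with the largest absolute log2 fold change and a mean of at least 100, and for the most abundant uncalled gene of a role; from the other lists, up to 4 called genes by the same measure without overlap. The members, lists and rules were chosen with earlier results of these data known.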

Additional observations from a re-analysis of the deposited data

Results flagged for a closer look

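For 4 genes, every GFP+ library moved one way from GFP- cells and every Tomato+ library the other way from Tomato- cells. The share of all tested genes with such opposite moves was not computed, so these 4 do not set the list apart from all genes. Within 1 line such moves were frequent. The GFP- library lay above its 3 positive libraries for 33.5% of all tested genes and below them for 33.1%. For the Tomato- library these shares were 36.9% and 37.4%. The differences below, log2 GFP+ over GFP- minus log2 Tomato+ over Tomato-, were not tested, since each line has 1 negative library. Slc2a1, the GLUT1 transporter, differed by -1.11, with GFP+ below GFP- cells and Tomato+ above Tomato- cells. Pkm, the pyruvate kinase, differed by -0.53 in the same way. Pfkfb3, a maker of fructose-2,6-bisphosphate, differed by -1.10 in the same way. Pdk1, the pyruvate dehydrogenase kinase, differed by 0.85, with GFP+ above GFP- cells and Tomato+ below Tomato- cells.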

How the results depend on the processing

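With replicates 1 and 3 averaged, 0 genes of the list were called lower and 2930 of all genes were called at all, against 4 and 6410 with all libraries. Array weights gave 25 higher and 8 lower, where 40.5% and 41.2% of all genes were, and 13189 of all genes called. Leaving out single libraries gave 17 to 22 higher, 2 to 4 lower and 4311 to 7901 of all genes. In these fits 12.8% to 24.9% of all genes were higher and 13.2% to 24% lower. Same-numbered libraries of the 2 groups did not deviate together (correlations 0.011 to 0.023), so the numbers were not taken as pairs, although each GFP+ library correlated best with its own number. With a replicate block, 18 genes were higher and 5 lower, where 18.5% and 18.6% of all genes were, and 5991 of all genes were called. Under it the limma adjusted p was 0.0387 for Pdha1, 0.0518 for Pdhb and 0.051 for Pdk3. Direction changed only for genes that were not called. Pfkm gave -0.14 with averaging, -0.041 with a length correction and -0.089 to 0.24 without single libraries. Pdk4 gave 0.34 with quantile normalization, 0.036 with averaging and -0.71 to 0.042 without single libraries. Slc2a4 gave 0.28 with array weights and -0.48 to 0.013 without single libraries. Array weights gave 0.43 for Pgam2 and -0.082 for Pfkfb3. The share of Pdk3 in its family, GFP+ minus Tomato+, was -3.74 percentage points without length, against 1.49. The cause of these changes was not tested. Calls ended in 10 of 20 settings for Pdhb, 7 for Pdk3, 6 for Pfkfb1, 5 for Gpi1, 4 for Ldhb and 3 for G6pdx, and only with averaging for Hk1, Pgam1 and Pfkfb4. Without single libraries the limma adjusted p was 0.0548 to 0.0663 for Gpi1 and 0.0706 to 0.117 for Pfkfb1 (GFP+ or Tomato+ replicate 1 or 3 left out), 0.0644 to 0.0812 for Ldhb (GFP+ replicate 1, Tomato+ replicate 1 or 3), 0.053 to 0.151 for Pdhb (any but GFP+ replicate 2), 0.0913 to 0.101 for Pdk3 (any GFP+ replicate) and 0.0555 to 0.0556 for G6pdx (Tomato+ replicate 1 or 3). Without GFP+ replicate 2 Eno2, Pfkp and Tigar were called higher (limma adjusted p 0.0378, 0.0326 and 0.0103), and Eno2 without Tomato+ replicate 2 (0.0287). The remaining 15 genes called higher stayed called under each alternative run for them (Aldoa could not enter the length correction), among them Slc2a3, Ldha, Gapdh and Eno1. Negative cells had 1 library each, which limits every value drawn from them.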
